A study of Homo sapiens with 18 samples.

Results

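The genes described here are the expressed antisense genes of a thyroid carcinoma RNA sequencing experiment, 319 of the 58302 genes in the table. They were chosen by name and by level: the gene name ends in -AS and a digit, which 1245 genes do, and the mean over the 18 libraries is at least 50. The level that chose them is given as a description. No comparison between groups was part of the rule, but the mean includes the siDicer libraries. A gene close to 50 can therefore be in or out of the list through its siDicer values. Expression is the normalised read count of a gene per 20 M reads of a library, not divided by gene length. TPC1 is an established human line of papillary thyroid carcinoma with wild-type Dicer1, and D11 is a single Dicer1 (+/-) clone made from it with CRISPR-Cas9. Each line was left without transfection (NT), given a negative control siRNA (NC) or given an siRNA that targets Dicer1 (siDicer), each siRNA at 5 nM with a lipid reagent, and total RNA was collected on day 4. There were 3 libraries in each of the 6 groups, made with a stranded mRNA kit, and NT and NC together served as the control group of a line, with 6 libraries.

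Dicer is the enzyme that cuts hairpin precursors into mature miRNAs, and miRNAs guide Argonaute proteins to transcripts that match their seed. An antisense gene is transcribed from the strand opposite to a neighbouring gene, its sense gene, after which it is named. Some antisense genes lie across the exons of the sense gene, while others start beside the sense promoter and run away from it, sharing a promoter region but no exon. Many transcripts of the latter kind stay in the nucleus and are short-lived, being removed by the RNA exosome.

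Groups were taken from the sample descriptions, because the titles name another group for 12 of the 18 samples. DICER1 itself was at 246 to 395 in TPC1 siDicer and at 1397 to 2492 in the TPC1 control libraries. It was at 277 to 451 in D11 siDicer and at 655 to 1536 in the D11 control libraries, so the descriptions separated low from high DICER1 without overlap in both lines. By the titles, the TPC1 siDicer group would span 246 to 2366. Depth, recovered from the spacing of the values, was 11.3 to 23.3 M reads, and the median library had 15.9 M. Of the thyroid markers, PAX8 was at a mean of 9806, FOXE1 at 121 and TG at 73.7, while NKX2-1 was at 0 in every library and TSHR and SLC5A5 did not exceed 2 in any. The epithelial keratins KRT8 and KRT18 were at means of 9809 and 4569, but the epithelial adhesion genes EPCAM and CDH1 were at 1.28 and 2.67, and 8 of 9 markers of leukocytes, endothelium and fibroblasts were at means of 5 or less, the exception being COL1A1 at 86.2. The labels do not say whether the 3 libraries of a group came from separate cultures, so p-values measure the spread between these libraries, which may be technical. In bulk RNA, fewer cells that express a gene and less of its RNA per cell cannot be told apart.

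The -AS genes were mostly of low level. Their means ran from 50 to 7223 with a median of 161, with 21 genes at 1000 or more and 101 between 50 and 100. Among the highest were VIM-AS1 at a mean of 7223, LRRC75A-AS1 at 6762, FLG-AS1 at 3715, DDIT4-AS1 at 3225 and MIF-AS1 at 3181. Their sense genes encode the intermediate filament vimentin, a leucine-rich repeat protein, the epidermal protein filaggrin, a stress-induced inhibitor of mTORC1 and the cytokine MIF. PCBP1-AS1 at 3047, PAX8-AS1 at 2571, OIP5-AS1 at 2571 and CD44-AS1 at 2488 followed. Just inside the threshold were GLIS3-AS1 at 50, PHKA2-AS1 at 50.3 and ST20-AS1 at 50.6, and just outside it GDNF-AS1 at 49.9, CRTC3-AS1 at 49.7 and HORMAD2-AS1 at 48.9. DICER1-AS1, the antisense gene of the targeted gene, was at a mean of 13.3 and is no member. The sense gene of 318 members is in the table (308 different genes), and 269 members were at a lower mean than their sense gene and 49 at a higher one.

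By identifier, 317 members are in GENCODE release 44 on GRCh38, where 309 are lncRNA genes, 4 pseudogenes, 1 a gene to be experimentally tested and 3 protein-coding genes (MMP24-AS1, NCBP2-AS2 and SPTY2D1-AS1). The name does not fix the position. Of the 317, 294 share exon bases with another gene in this annotation, 9 overlap the body of a gene but no exon, and 14 overlap no gene at all. The median share of a member's exon bases that lay in exons of the opposite strand was 16.3%, and 44 members had at least 50% of theirs there. The bodies of 287 members overlap that of their sense gene, 28 lie head to head with it and apart, and 78 start within 1000 bases of the sense start. The release has renamed 34 members, including LRRC75A-AS1 (now SNHG29, a host of small nucleolar RNAs), RAB30-AS1 (RAB30-DT), NUP50-AS1 (NUP50-DT) and PAXIP1-AS1 (PAXIP1-DT), where DT stands for divergent transcript.

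No source used here says whether reads were counted by strand, and values of genes with overlapping exons followed each other. AC006064.4, which is no member and whose 422 exon bases all lie in GAPDH exons of the opposite strand, was at a mean of 24777 beside 54202 for GAPDH, and the ratio of the pair stayed between 0.445 and 0.481 in all 18 libraries. MIF-AS1 (chr22:23894426-23898930, minus strand) was at 2783, 3161 and 3403 in TPC1 NT, 2983, 3541 and 3087 under NC and 2568, 2810 and 2537 under siDicer. MIF itself was at 2769, 3160 and 3396, then 2981, 3535 and 3077, then 2562, 2802 and 2530 in the same libraries. The ratio of these genes was 1.00 to 1.01 in all 18 libraries, with 46.5% of the exon bases of MIF-AS1 in exons of the opposite strand and 61.2% in exons of its own strand. The value of a member that shares exon bases therefore cannot be told apart from reads of the other gene. The same limit holds for the 294 such members below, whatever direction is given for them.

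Over the 291 pairs whose sense gene had a mean of at least 50, Pearson's r between the deviations of the member and of its sense gene from their group means had a median of 0.71 and ran from -0.87 to 1.00. The r was over 0.9 in 50 pairs and below 0 in 28. Libraries of the same replicate number in a line tended to deviate together over all genes, which can add to r in any pair. The 18 libraries behind each r are thus not independent, and no test is given. The median r was 0.18 in the 37 pairs that share no exon bases, 0.63 in the 89 that share up to 10% of the member's exon bases, 0.75 in the 76 above 10% and up to 25%, 0.82 in the 47 up to 50% and 0.81 in the 41 above that. DDIT4-AS1, which is not in the annotation, is the pair outside these classes. The level of the members was not matched between the classes, and its part in r was not tested.

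**Figure D1:**
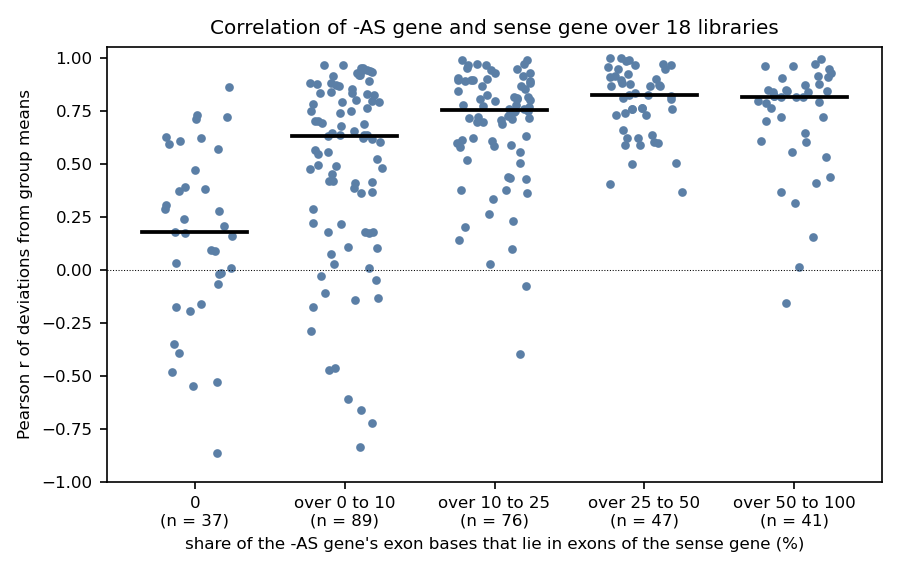
Each point is 1 of the pairs of a -AS gene and its sense gene (sense mean of at least 50). The x axis is the percent of the exon bases of the -AS gene that lie in exons of its sense gene, in 5 bins, and the y axis is Pearson's r of their deviations from the group means over 18 libraries. The medians climb from 0.18 in the pairs that share no exon bases to 0.82 in the pairs that share over 25% and up to 50%.

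After Dicer1 siRNA, -AS genes changed in both directions. The largest changes in D11 were a rise of 1.61 on the log2 scale in MAP3K14-AS1 and a change of -1.71 in LACTB2-AS1, each beside a like change of the sense gene. In TPC1, 14 of the 319 were called higher (4.39%) and 19 lower (5.96%), where a call is an adjusted p under 0.05 by limma and a fold change of at least 1.5. Of all 18475 genes tested, 3.22% were called higher and 4.16% lower. In D11, 25 members were called higher (7.84%) and 38 lower (11.9%), beside 5.26% and 6.75% of 18413 genes. Among genes of similar level, with a mean of 50 to 500, the shares were 3.64% and 5.48% in TPC1 and 5.89% and 9.45% in D11, so the members were close to the background of their level. All 319 passed the filter on low values in both lines. The higher calls in D11 include GLIS3-AS1 (0.78), whose mean of 50 is at the threshold of the list. That mean includes its siDicer values, so it may be in the list through them. Its call was lost in 8 of 9 fits that left out 1 library. The lower calls include ST20-AS1 (-0.89, mean 50.6), whose call was lost in 7 of 9. The median log2 change of the members was -0.04 in TPC1 and -0.02 in D11, beside -0.04 in both lines over all genes tested.

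The calls of the lines matched in sign. There were 28 members called in both lines, all in the same direction, which is 84.8% of the TPC1 calls and 44.4% of the D11 calls. The 33 members called in TPC1 all had the same sign in D11, and the 63 called in D11 all had the same sign in TPC1. A test of the difference itself, the interaction of line and siDicer in limma, called 0 of the 319 members and 0% of 19181 genes, with 2 members and 133 genes at an unadjusted p under 0.05. That is rarer than where no gene differs, so the test was conservative, and its lack of calls does not show that the lines responded alike. The siDicer calls of each line depended on single libraries. Without TPC1 siDicer replicate 1, 1 member was called higher and 6 lower, without replicate 3 it was 1 and 5, and without replicate 2 the lower calls came to 35. Without D11 siDicer replicate 3, 10 were higher and 23 lower, and without replicate 1, 16 were higher. Of the 20 named members called in TPC1, 6 kept the call whichever library was left out (LACTB2-AS1, OTUD6B-AS1, SGO1-AS1, AFAP1-AS1, HMMR-AS1 and H1FX-AS1), as 21 of 33 did in D11. The split of the calls moved with the scaling: it was 20 higher and 13 lower in TPC1 and 29 and 29 in D11 with TMM scaling, and 16 and 16 and then 30 and 29 with RLE scaling.

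**Figure D2:**
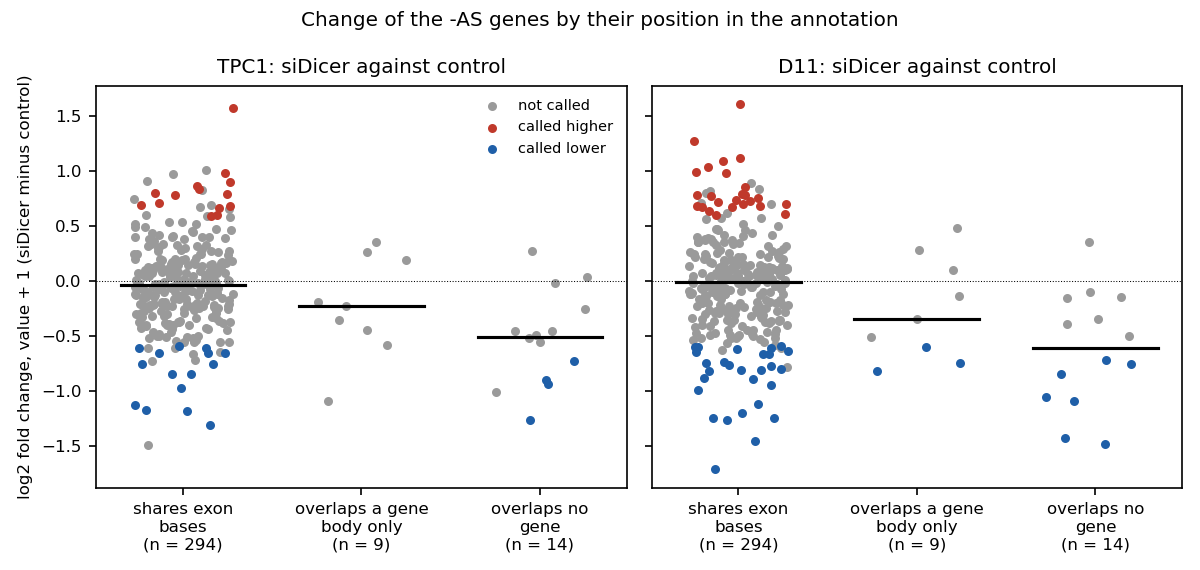
The log2 change in siDicer against control is shown for each -AS gene, in TPC1 and in D11, by how the gene lies to other genes of GENCODE 44. The groups are genes that share exon bases (294), genes within or across the body of another gene only (9) and genes that overlap none (14). The calls in the higher direction lie in the group that shares exon bases, which holds most of the genes, and the 14 genes that overlap no gene have medians of -0.51 in TPC1 and -0.61 in D11. In NC against NT, which is not drawn, these 14 had medians of -0.13 in TPC1 and -0.22 in D11.

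The members called higher all share exon bases with another gene, as do 294 of the 317 members in the annotation. In D11 the sense gene was called higher as well for 19 of the 25 and was not called for the other 6, and in TPC1 this was so for 11 and 3 of 14. The fitted change of the member was within 0.3 log2 units of that of its sense gene for 20 of 25 in D11 and 13 of 14 in TPC1. None of these members starts within 1000 bases of its sense gene, which 78 members do.

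MAP3K14-AS1 (chr17:45247916-45269824, plus strand) had the largest rise, with 22.1% of its exon bases in exons of the opposite strand. Its sense gene MAP3K14 encodes NIK, the kinase of the non-canonical NF-kappaB pathway. MAP3K14-AS1 was at 164, 110 and 109 in TPC1 NT, 176, 82 and 149 under NC and 563, 192 and 504 under siDicer. In D11 it was at 165, 85 and 124 in NT, 220, 106 and 160 under NC and 550, 296 and 449 under siDicer. All siDicer libraries were above all control libraries of their line, replicate 2 being the lowest of the 3 each time. The log2 change was 1.57 ± 0.34 (SE) in TPC1 (adjusted p = 0.013) and 1.61 ± 0.27 in D11 (adjusted p = 0.0018), beside 1.63 and 1.68 for MAP3K14. The TPC1 call was lost without siDicer replicate 1 (1.28, adjusted p = 0.085) and without replicate 3 (1.36, adjusted p = 0.088).

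KCTD21-AS1 lies across KCTD21, which encodes an adaptor of a Cullin-3 ubiquitin ligase. KCTD21-AS1 was at 92, 106 and 92 in D11 NT, 128, 99 and 129 under NC and 227, 187 and 222 under siDicer, with no overlap between siDicer and control. The log2 change was 0.98 ± 0.16 in D11 (adjusted p = 0.0013) and 0.90 ± 0.17 in TPC1 (adjusted p = 0.0084), and that of KCTD21 was 1.07 and 1.02. KCNMA1-AS1, antisense to the gene of a calcium-activated potassium channel, was at 298, 598 and 503 in D11 NT, 349, 456 and 389 under NC and 867, 874 and 1013 under siDicer. Its siDicer libraries also stood above every control library, by 1.12 ± 0.19 on the log2 scale (adjusted p = 0.0017), while KCNMA1 changed by 0.75 ± 0.16.

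EGFR-AS1 lies within EGFR, the gene of the epidermal growth factor receptor, with 6.53% of its exon bases in EGFR exons. It was at 139, 301 and 266 in D11 NT, 293, 362 and 331 under NC and 496, 566 and 617 under siDicer. EGFR was at 5470, 7817 and 7699 in D11 NT, 7970, 8905 and 10454 under NC and 13788, 14740 and 16259 under siDicer. Both genes were highest in the 3 siDicer libraries and lowest in NT replicate 1. The log2 change of EGFR-AS1 was 1.04 ± 0.24 (adjusted p = 0.0091), which fell to 0.97 (adjusted p = 0.056) without siDicer replicate 3, and that of EGFR was 0.91 ± 0.16. RNF185-AS1 is the extreme of shared sequence, since all 353 of its exon bases lie in exons of RNF185, the gene of a ubiquitin ligase of the endoplasmic reticulum. RNF185-AS1 was at 352, 299 and 281 in D11 NT, 396, 321 and 466 under NC and 650, 475 and 588 under siDicer. Its log2 change of 0.70 ± 0.16 (adjusted p = 0.0093) stood beside 0.74 ± 0.13 for RNF185, and the call was lost without siDicer replicate 1 (0.60, adjusted p = 0.055) or 3 (0.68, adjusted p = 0.053). It was also lost with NC alone as control.

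EPB41L4A-AS1 hosts the small nucleolar RNA SNORA13 and is the member of this group that was above its sense gene, at a mean of 429 beside 93.7. It was at 461, 361 and 425 in D11 NT, 365, 376 and 418 under NC and 590, 619 and 654 under siDicer. The siDicer libraries were above all controls, with a log2 change of 0.63 ± 0.11 (adjusted p = 0.0021). This call was lost with NT alone as control. EPB41L4A-AS1 was also called higher in TPC1 (0.69). The TPC1 call was lost with NC alone as control and without siDicer replicate 1 (0.64, adjusted p = 0.078) or 3 (0.57, adjusted p = 0.088). The other 3 hosts of small nucleolar RNAs (LRRC75A-AS1, TMEM161B-AS1 and UBA6-AS1) and the 6 hosts of miRNAs among the members were not called in D11. LRRC75A-AS1, the second highest member, changed by 0.22 ± 0.11 in D11 (adjusted p = 0.19) and by 0.24 ± 0.07 in TPC1 (adjusted p = 0.044), under the fold change minimum.

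FLG-AS1 had the second largest rise in D11, at 712, 2725 and 1848 in NT, 2982, 3000 and 3043 under NC and 4540, 5045 and 6093 under siDicer. The siDicer libraries were above all controls, and NT replicate 1 was far below the rest. The log2 change was 1.27 ± 0.38 (adjusted p = 0.030), beside 0.99 ± 0.21 for FLG. The call was lost without any 1 of the 3 D11 siDicer libraries (adjusted p = 0.065, 0.076 and 0.13 without replicates 1, 2 and 3) and without NT replicate 3 (adjusted p = 0.054).

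Among the higher members whose sense gene was not called, SGMS1-AS1 was at 127, 190 and 137 in D11 NT, 146, 161 and 170 under NC and 258, 256 and 231 under siDicer. SGMS1, which encodes a sphingomyelin synthase, changed by 0.16 ± 0.14, and SGMS1-AS1 by 0.69 ± 0.15 (adjusted p = 0.0057). TMEM51-AS1 was at 102, 167 and 141 in D11 NT, 173, 156 and 159 under NC and 273, 237 and 249 under siDicer. It changed by 0.77 ± 0.17 (adjusted p = 0.0063) and TMEM51 by 0.27 ± 0.09. The siDicer libraries of both members were above all their controls. For neither was the ratio to the sense gene called.

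The members called lower fell into more than 1 kind. In D11 the sense gene was called lower too for 13 of the 38, was not called for 23, was called higher for 1 (RAB30) and was not tested for 1. In TPC1 it was called lower for 7 of 19 and not called for 12. Of the 78 members that start within 1000 bases of the sense start, 15 were called lower in D11 (19.2%) and 9 in TPC1 (11.5%), with 0 higher in either line. Of the 238 that start farther away, 9.24% were called lower and 10.5% higher in D11, and 4.2% and 5.88% in TPC1. The difference between these groups was not tested.

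LACTB2-AS1, antisense to the gene of a mitochondrial endoribonuclease, fell the most. It was at 250, 170 and 232 in TPC1 NT, 263, 201 and 257 under NC and 93, 109 and 74 under siDicer. In D11 it was at 223, 184 and 186 in NT, 239, 168 and 238 under NC and 57, 68 and 61 under siDicer. The siDicer libraries lay below every control library of both lines, with a log2 change of -1.31 ± 0.17 in TPC1 (adjusted p = 0.0018) and -1.71 ± 0.15 in D11 (adjusted p = 6.2e-05). LACTB2 changed by -1.38 and -1.59, and the ratio of the pair was not called.

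Other lower members changed beside their sense genes. SGO1-AS1, next to the gene of shugoshin, the protector of centromeric cohesion, was at 119, 149 and 118 in D11 NT, 140, 129 and 125 under NC and 55, 59 and 54 under siDicer. Its log2 change was -1.20 ± 0.14 (adjusted p = 0.00022), beside -1.37 ± 0.13 for SGO1. HMMR-AS1, antisense to the gene of a spindle-associated hyaluronan receptor, was at 130, 128 and 115 in D11 NT, 131, 113 and 133 under NC and 31, 96 and 62 under siDicer. It changed by -1.12 ± 0.26 (adjusted p = 0.0099) and HMMR by -1.19 ± 0.15. PRC1-AS1, antisense to the gene of a midzone microtubule bundler, was at 1323, 1219 and 1217 in D11 NT, 1144, 1042 and 1106 under NC and 665, 868 and 709 under siDicer. It changed by -0.66 ± 0.11 (adjusted p = 0.0017) and PRC1 by -0.65 ± 0.11. All 3 were below every D11 control library in every siDicer library, and each shares 9.02% to 42.1% of its exon bases with exons of the opposite strand. Without D11 siDicer replicate 1 the change of PRC1-AS1 was -0.58 (adjusted p = 0.014), under the fold change minimum, and PRC1-AS1 was not called in TPC1 (-0.50 ± 0.14, adjusted p = 0.043). PRC1-AS1 was already lower in NC than in NT in D11, without overlap, and its D11 call was lost with NC alone as control. H1FX-AS1, which starts 894 bases from the gene of linker histone H1.10, was at 402, 463 and 525 in D11 NT, 284, 445 and 319 under NC and 104, 244 and 179 under siDicer. Its change of -1.26 ± 0.25 (adjusted p = 0.0040) stood beside -1.31 ± 0.26 for H1FX.

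ADIRF-AS1, antisense to a gene of adipocyte regulation, was at a mean of 521 ± 181 (SD, n = 6) in D11 control and 183 ± 39.2 (SD, n = 3) in siDicer, again with every siDicer library below all controls. It changed by -1.45 ± 0.26 (adjusted p = 0.0023) and ADIRF by -1.39 ± 0.30.

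OTUD6B-AS1 was lower in both lines while its sense gene was not called. It starts 387 bases from OTUD6B, the gene of a deubiquitinase, and shares 2.76% of its exon bases with it. OTUD6B-AS1 was at 1120, 1026 and 942 in D11 NT, 939, 928 and 999 under NC and 427, 494 and 346 under siDicer. OTUD6B was at 586, 766 and 656, then 812, 571 and 670, then 647, 608 and 522 in the same groups. The member stood below all its controls in each siDicer library while the sense gene overlapped its controls. The log2 changes were -1.24 ± 0.12 (adjusted p = 9.1e-05) and -0.19 ± 0.13 (adjusted p = 0.34), and the ratio changed by -1.06 ± 0.14 (adjusted p = 0.0022). In TPC1 OTUD6B-AS1 was at 1021, 890 and 977 in NT, 1010, 970 and 898 under NC and 344, 624 and 354 under siDicer, a change of -1.18 ± 0.17 (adjusted p = 0.0023).

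The values least open to a partner's exon reads come from the 23 members that share no exon bases with any gene of GENCODE 44. Reads were counted on an Ensembl annotation whose exons were not examined here, and 9 of the 23 overlap the body of another gene. The group of 23 was picked after values had been seen, and it gets no test of its own. Their means ran from 52.3 to 927 with a median of 68.5. In D11, 10 of the 23 were called lower (43.5%) and 0 higher, with a median log2 change of -0.49 and 19 of 23 below 0. In TPC1, 4 were called lower (17.4%) and 0 higher, with a median of -0.45 and 18 of 23 below 0. Their 21 tested sense genes had medians of -0.06 in D11 and -0.07 in TPC1, and the sense gene was not called for any of the 10 nor of the 4. In NC against NT the medians of the 23 were -0.04 in D11 and -0.12 in TPC1. Those of the 14 that overlap no gene were -0.22 in D11 and -0.13 in TPC1, beside 0.02 and 0.001 over all genes tested. A part of the shift was thus present without Dicer1 siRNA. With TMM or RLE scaling 8 of the 23 were called lower after siDicer in D11 and 4 in TPC1, with 0 higher. With NC alone as control, 7 were lower in D11 and 3 in TPC1. Without D11 siDicer replicate 3 the count was 6. In TPC1 it ran from 0 without siDicer replicate 3 to 10 without siDicer replicate 2, being 1 without NT or siDicer replicate 1, 2 without NC replicate 2 or NT replicate 3 and 7 without NT replicate 2. The corresponding share of lower calls in D11 was 14% of 129 other lncRNA genes that share no exon bases (9 higher, 18 lower, median -0.16), 7.98% of 1191 other lncRNA genes that do, and 11% of 1888 protein-coding genes of mean 50 to 500 that do not (median -0.05). In TPC1 these groups had 6.20%, 3.69% and 6.67% called lower. LINC genes with a mean of at least 50 had 15.4% of 78 called lower in D11 and 3.85% in TPC1, with medians of -0.22 and -0.17. None of these groups was matched in level to the 23. Of the 101 members with a mean of 50 to 100, 15.8% were called lower in D11 and 5.94% in TPC1. Of the 218 members at 100 or more, it was 10.1% and 5.96%. The part of level in the share of the 23 was not tested.

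**Figure D3:**
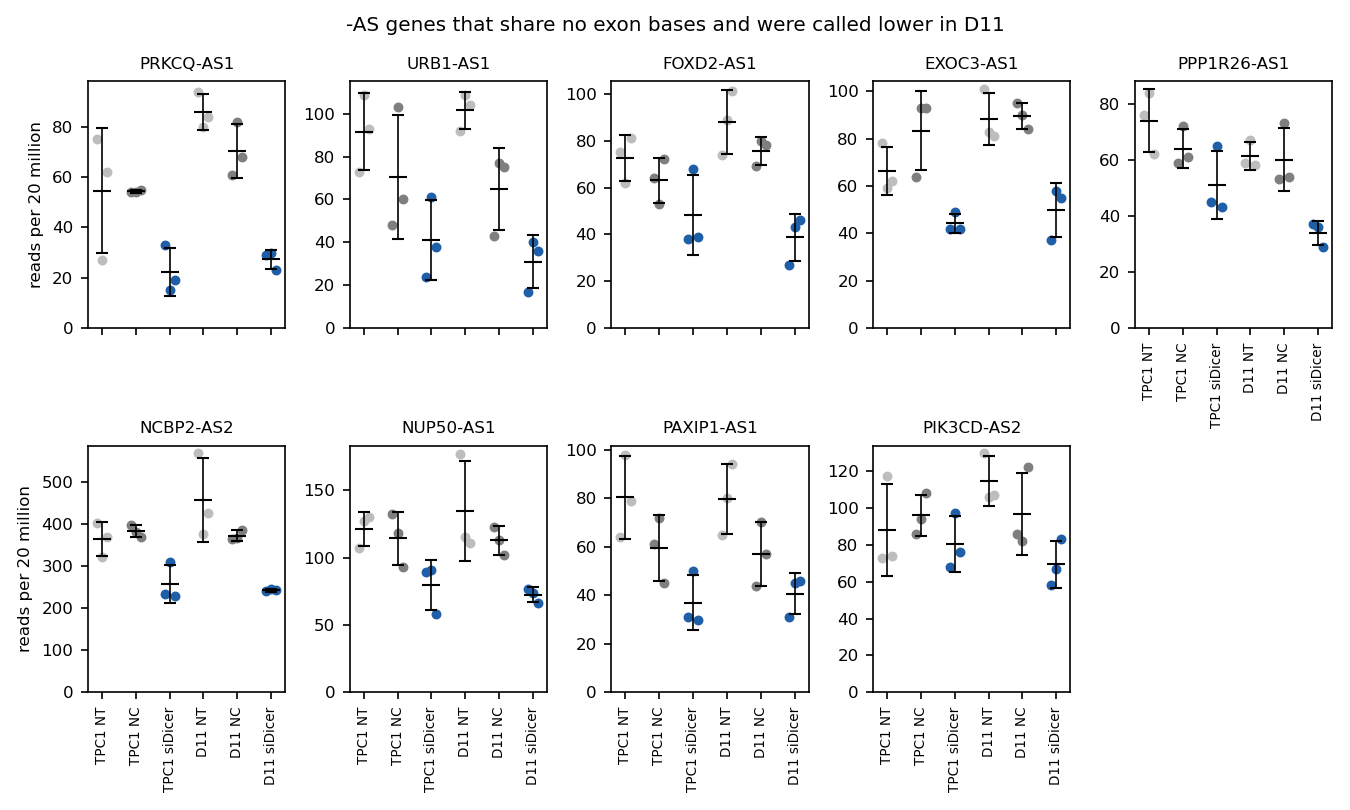
Of the -AS genes that share no exon bases and were called lower in D11, 9 are shown, 1 panel each, with the normalised read count (reads per 20 M) on a linear y axis from 0 and the 6 groups on the x axis. Points are libraries (light grey NT, dark grey NC, blue siDicer), and bars are the mean and SD of 3. The D11 siDicer points lie below all D11 control points in 7 of the 9 panels. The panels were chosen by their D11 call, so this separation is no separate result. Of all 38 members called lower in D11, 32 had no overlap between siDicer and control.

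Per library, the median over these 23 members, as log2 difference from the control mean of the line, was -0.47, -0.14 and -0.66 in the TPC1 siDicer replicates and -0.60, -0.41 and -0.32 in the D11 siDicer replicates. The control libraries lay between -0.17 and 0.29, the highest being TPC1 NT replicate 2. The siDicer libraries of each line lay below all its controls, whose lowest values were -0.12 in TPC1 and -0.17 in D11, and TPC1 siDicer replicate 2 did so by the least. DICER1 was at 255, 395 and 246 in the TPC1 siDicer replicates and at 297, 451 and 277 in those of D11. The library with the most DICER1 changed least in TPC1, while in D11 the library with the least DICER1 did, and the part of DICER1 in the result was not tested.

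Of these 10, 9 are described, named after their values were seen where the rule for named genes did not list them. They are PRKCQ-AS1, URB1-AS1, FOXD2-AS1, EXOC3-AS1, PPP1R26-AS1, NCBP2-AS2, NUP50-AS1, PAXIP1-AS1 and PIK3CD-AS2, and 3 of them (PRKCQ-AS1, EXOC3-AS1 and PAXIP1-AS1) were called lower in TPC1 too. Of the 9, 7 lie head to head with their sense gene and apart from it, with 14 (EXOC3-AS1) to 3402 (FOXD2-AS1) bases between the starts. The bases between the starts are shown for 4 of these pairs to give the position of members described next, and for RAB30-AS1 as a pair whose sense gene went the other way. They are from GRCh38, 5′ to 3′ on the strand of the -AS gene, so that the sense gene starts beyond the left end on the other strand and the -AS gene beyond the right end. Capitals mark CpG dinucleotides.

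EXOC3-AS1, chr5:443161-443174, minus strand: gacagCGCGCGggc
NCBP2-AS2, chr3:196942595-196942673, plus strand: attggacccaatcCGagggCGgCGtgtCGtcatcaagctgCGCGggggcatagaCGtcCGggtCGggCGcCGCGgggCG
URB1-AS1, chr21:32393013-32393094, plus strand: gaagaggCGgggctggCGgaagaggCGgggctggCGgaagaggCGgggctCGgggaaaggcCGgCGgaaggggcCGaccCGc
PRKCQ-AS1, chr10:6580302-6580418, plus strand: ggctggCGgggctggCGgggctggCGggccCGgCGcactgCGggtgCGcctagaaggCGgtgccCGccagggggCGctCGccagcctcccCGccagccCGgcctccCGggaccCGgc
RAB30-AS1, chr11:83071924-83072051, plus strand: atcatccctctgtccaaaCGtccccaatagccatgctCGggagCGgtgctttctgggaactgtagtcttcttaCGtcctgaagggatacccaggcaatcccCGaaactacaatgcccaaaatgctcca

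The first 4 sequences hold 12.2 to 21.4 CpG per 100 bases and that of RAB30-AS1 3.91. Such values did not separate the pairs by their calls. TMCC1-AS1 at 22.2, SMC5-AS1 at 20.7 and ZNF561-AS1 at 16.7 CpG per 100 bases were not called, while FOXD2-AS1 at 4.61 and UBL7-AS1 at 6.15 were called lower in D11. In 300-base windows around RefSeq gene starts on GRCh38, 48.8% of 27305 promoters hold at least 15 CG, and the median is 14. Of the 232 members with such a window, 59.9% hold at least 15 (median 19.5), as do 89.1% of the 64 members that start within 1000 bases of the sense start. The median was 14 in the 13 windows of members called higher in D11 23 in the 28 of members called lower and 20 in the 191 of members not called. The letters TATAAA, searched on both strands, are in 12% of all windows and in 3.13% of those 64. These are counts of letters and say nothing of the factors bound.

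PRKCQ-AS1 (chr10:6580419-6616921, plus strand), beside the gene of protein kinase C theta, was at 75, 27 and 62 in TPC1 NT, 54, 54 and 55 under NC and 33, 15 and 19 under siDicer. In D11 it was at 94, 80 and 84 in NT, 61, 82 and 68 under NC and 29, 30 and 23 under siDicer. The D11 groups did not overlap, while in TPC1 NT replicate 2 was within the range of siDicer. The log2 change was -1.48 ± 0.19 in D11 (adjusted p = 0.00038) and -1.26 ± 0.32 in TPC1 (adjusted p = 0.026). The TPC1 call was lost without NT replicate 1 or 3 or siDicer replicate 2 or 3, with adjusted p of 0.054 to 0.12. PRKCQ was itself low, at a mean of 15.9, and its change of -0.72 ± 0.35 in D11 was not called (adjusted p = 0.16).

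NCBP2-AS2 (chr3:196942674-196943543, plus strand), one of the 3 members annotated as protein-coding, starts 80 bases from NCBP2, the gene of the small subunit of the nuclear cap-binding complex. NCBP2-AS2 was at 569, 376 and 427 in D11 NT, 365, 367 and 387 under NC and 240, 247 and 243 under siDicer. The siDicer values were close together and below all controls, a change of -0.75 ± 0.14 (adjusted p = 0.0034). NCBP2 was at 3309, 2953 and 2980, then 3111, 2800 and 2952, then 3008, 2852 and 2778, which overlap. In TPC1 NCBP2-AS2 changed by -0.55 ± 0.12 (adjusted p = 0.016), under the fold change minimum.

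URB1-AS1 (chr21:32393095-32393980, plus strand), beside the gene of a ribosome biogenesis factor, was at 92, 109 and 104 in D11 NT, 43, 77 and 75 under NC and 17, 40 and 36 under siDicer. It changed by -1.43 ± 0.32 in D11 (adjusted p = 0.0074), and URB1 by 0.03 ± 0.12. The NC values of URB1-AS1 were already below its NT values in D11, without overlap. EXOC3-AS1 (chr5:441498-443160, minus strand), 15 bases from the start of the gene of an exocyst subunit, was at 101, 83 and 81 in D11 NT, 95, 90 and 84 under NC and 37, 58 and 55 under siDicer. Its siDicer libraries were below all controls, as were those of URB1-AS1. EXOC3-AS1 changed by -0.84 ± 0.18 in D11 (adjusted p = 0.0055) and by -0.72 ± 0.19 in TPC1 (adjusted p = 0.031), and EXOC3 by -0.12 ± 0.09 in D11. FOXD2-AS1, beside a forkhead transcription factor gene, was at 74, 89 and 101 in D11 NT, 69, 80 and 78 under NC and 27, 43 and 46 under siDicer, a change of -1.09 ± 0.20 (adjusted p = 0.0029). It was not called in TPC1, where siDicer replicate 2 at 68 was within the controls and the change was -0.52 ± 0.22 (adjusted p = 0.13).

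The remaining 4 were called lower in D11 as well. PPP1R26-AS1 changed by -0.82 ± 0.18 (adjusted p = 0.0074), NUP50-AS1 by -0.74 ± 0.18 (adjusted p = 0.011), PAXIP1-AS1 by -0.72 ± 0.24 (adjusted p = 0.049) and PIK3CD-AS2 by -0.59 ± 0.19 (adjusted p = 0.039). The siDicer and control values of PAXIP1-AS1 and PIK3CD-AS2 overlapped, and those of the other two did not.

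**Figure D4:**
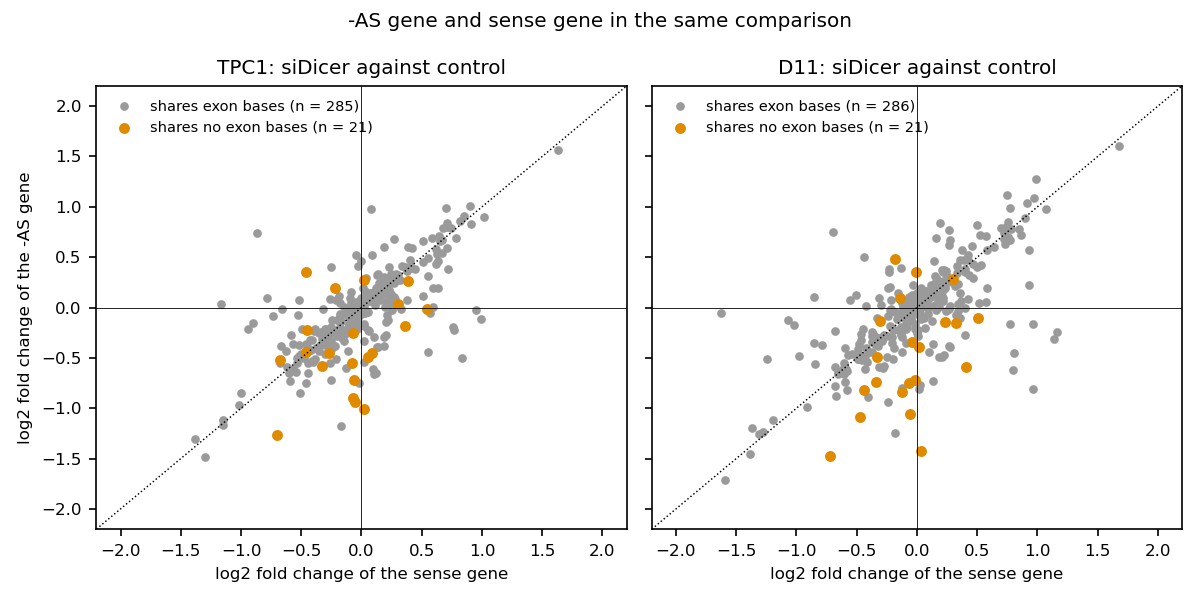
The log2 change of each -AS gene in siDicer against control (y axis) is plotted against that of its sense gene (x axis), in TPC1 and in D11. Grey points share exon bases with another gene, orange points (21) share none, and the dotted line marks equal change. Many grey points lie near the line, and the orange points called lower in D11 lie below it.

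Some pairs came apart. The ratio of a member to its sense gene was called higher for 7 of 309 tested pairs in D11 (2.27%) and lower for 21 (6.80%), beside 1.7% and 7.56% of all 529 pairs of -AS genes tested. In TPC1, 5 of 308 were higher (1.62%) and 7 lower (2.27%), beside 1.32% and 3.01% of 531 pairs. Of the 7 higher ratios in D11, the sense gene was called lower in 3 and the member higher in 1. Of the 21 lower ratios, the member was called lower in 10 and the sense gene higher in 7, RAB30-AS1 and RAB30 being in both counts, and neither was called in 5. Of the 10 named ratios called in TPC1, 4 kept the call whichever library was left out (SPAG5-AS1, STARD4-AS1, LIPE-AS1 and ZEB1-AS1), and 6 lost it without TPC1 siDicer replicate 1 or without replicate 3. Of the 15 named in D11, 11 kept it.

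SPAG5-AS1 starts 235 bases from SPAG5, the gene of the spindle protein astrin. SPAG5-AS1 was at 1083, 1107 and 1075 in D11 NT, 945, 947 and 987 under NC and 1015, 1143 and 1140 under siDicer. SPAG5 was at 2531, 2591 and 2357, then 2423, 2172 and 2254, then 1196, 1603 and 1190. The member overlapped its controls while the sense gene was lower in all 3 siDicer libraries. The ratio rose by 0.96 ± 0.09 in D11 (adjusted p = 0.00036) and by 0.88 ± 0.12 in TPC1 (adjusted p = 0.0054).

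LIPE-AS1 was at 108, 124 and 101 in D11 NT, 128, 109 and 123 under NC and 123, 114 and 97 under siDicer. LIPE, which encodes hormone-sensitive lipase, was at 135, 167 and 126, then 93, 109 and 97, then 29, 56 and 33. The ratio rose by 1.57 ± 0.28 (adjusted p = 0.0072), with the sense gene again the one that moved. LIPE was already lower in NC than in NT, without overlap, and with NC alone as control the ratio was not called (1.26, adjusted p = 0.059), as it was not in TPC1 (1.23, adjusted p = 0.054). STARD4-AS1 was at 170, 368 and 314 in D11 NT, 272, 345 and 251 under NC and 544, 428 and 443 under siDicer, and STARD4, a sterol transport gene, at 690, 1771 and 1307, then 940, 1603 and 959, then 691, 858 and 600. The member was above all its controls while STARD4 overlapped them. The member changed by 0.75 ± 0.21 (adjusted p = 0.022), STARD4 by -0.70 ± 0.25 (adjusted p = 0.066) with no call, and the ratio by 1.45 ± 0.15 (adjusted p = 0.00073). The call of the member, not that of the ratio, was lost without D11 siDicer replicate 1 (0.64, adjusted p = 0.10) or 3 (0.79, adjusted p = 0.068).

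In some of the lower ratios the sense gene rose and the member overlapped its controls. TRAM2-AS1 was at 114, 119 and 141 in D11 NT, 102, 130 and 150 under NC and 109, 103 and 91 under siDicer, beside TRAM2, a gene of collagen synthesis, at 2539, 3961 and 3418, then 4506, 4090 and 4439, then 7760, 8383 and 8687. The ratio changed by -1.45 ± 0.19 (adjusted p = 0.0022) and TRAM2 by 1.14 ± 0.16. LPP-AS2 was likewise not called, at -0.25 ± 0.16, while LPP, a focal adhesion gene, rose by 1.16 ± 0.20 and the ratio changed by -1.41 ± 0.17 (adjusted p = 0.0011).

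In others the member fell. RAB30-AS1 (chr11:83072052-83107789, plus strand) was at 90, 80 and 78 in D11 NT, 74, 80 and 78 under NC and 50, 43 and 43 under siDicer, below every control. RAB30, the gene of a Golgi GTPase, was at 162, 182 and 159, then 322, 210 and 278, then 482, 368 and 397, above every control. The member changed by -0.81 ± 0.15 (adjusted p = 0.0031), the sense gene by 0.97 ± 0.22 (adjusted p = 0.0079) and the ratio by -1.77 ± 0.27 (adjusted p = 0.0033). RAB30 was already higher in NC than in NT in D11, where its values did not overlap. In TPC1 RAB30-AS1 changed by -0.50 ± 0.17 (adjusted p = 0.080) and was not called. ARRDC1-AS1 was at 451, 451 and 389 in D11 NT, 317, 372 and 309 under NC and 175, 252 and 247 under siDicer, a change of -0.76 ± 0.16 (adjusted p = 0.0061). ARRDC1, the gene of an arrestin-domain protein, changed by 0.03 ± 0.12, and the ratio by -0.79 ± 0.12 (adjusted p = 0.0031). ARRDC1-AS1 was already lower in NC than in NT in D11, without overlap. With NC alone as control its own call was lost, while that of the ratio was kept. MAPKAPK5-AS1 was at 241, 224 and 246 in D11 NT, 148, 187 and 211 under NC and 119, 114 and 123 under siDicer, again below all controls, a change of -0.79 ± 0.16 (adjusted p = 0.0050) with MAPKAPK5 at -0.13 ± 0.09. Its ratio call (-0.67 ± 0.15, adjusted p = 0.019) was lost without any 1 of the 3 D11 siDicer libraries and with NC alone as control. The NC values of MAPKAPK5-AS1 were already below its NT values, without overlap.

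**Figure D5:**
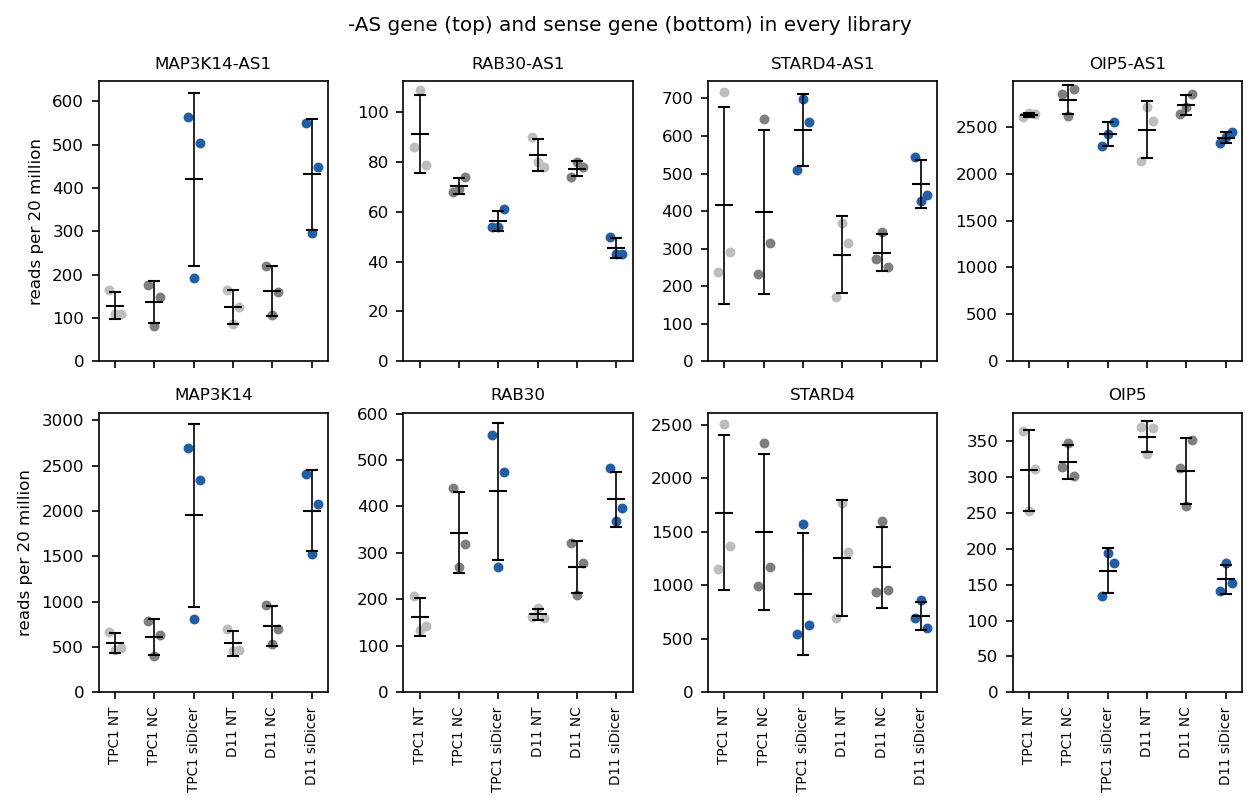
Values of 4 -AS genes (top) and of their sense genes (bottom) in the 18 libraries, as normalised read count (reads per 20 M) on linear axes from 0, by group. Points are libraries (light grey NT, dark grey NC, blue siDicer), and bars are the mean and SD of 3. MAP3K14-AS1 follows MAP3K14, RAB30-AS1 and RAB30 part in opposite directions in D11, the D11 siDicer values of STARD4-AS1 lie above all D11 controls while those of STARD4 overlap theirs, and OIP5-AS1 stays near its control level while OIP5 falls.

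OIP5-AS1, the human counterpart of the RNA Cyrano, is known as a long noncoding RNA with a site of unusually long match to miR-7, and is shown here for its direct tie to miRNAs. The mature miRNAs looked for, from RefSeq with the seed in capitals, and the 30 bases of OIP5-AS1 with the longest match to miR-7-5p, with the matching bases in capitals, were as follows.

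let-7a-5p: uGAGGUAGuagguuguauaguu
miR-21-5p: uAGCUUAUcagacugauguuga
miR-7-5p: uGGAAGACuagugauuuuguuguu
miR-146b-5p: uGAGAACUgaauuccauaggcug
miR-221-3p: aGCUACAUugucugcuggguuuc
OIP5-AS1 site: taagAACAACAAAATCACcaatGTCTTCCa

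The site lies at bases 2912 to 2941 of the longest OIP5-AS1 transcript of 8881 bases, which holds 3 matches to the miR-7 seed. Outside the seed the site pairs in an unbroken run of 14 bases. OIP5-AS1 was at 2600, 2643 and 2634 in TPC1 NT, 2847, 2613 and 2904 under NC and 2299, 2427 and 2551 under siDicer. In D11 it was at 2133, 2713 and 2563 in NT, 2639, 2706 and 2848 under NC and 2323, 2387 and 2440 under siDicer. The siDicer values were below the controls in TPC1 and overlapped them in D11. The change was -0.16 ± 0.07 in TPC1 (adjusted p = 0.17) and -0.12 ± 0.10 in D11 (adjusted p = 0.41), and neither was called. OIP5, the gene of a centromere loading factor, was at 369, 332 and 368, then 313, 260 and 351, then 141, 180 and 152 in D11. It fell by 1.07 ± 0.14 on the log2 scale (adjusted p = 0.00045), and the ratio rose by 0.95 ± 0.16 (adjusted p = 0.0051).

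Matches to the reverse complement of the 7-base seed in the longest transcript were less frequent per transcript in the members, which are shorter, than in genes with a mean of at least 50 (median lengths 2383 and 3576 bases). For let-7a-5p it was 14.2% of 317 members and 24.4% of 13928 genes, for miR-21-5p 9.46% and 15.2%, for miR-7-5p 18.9% and 27.2%, for miR-146b-5p 16.1% and 23.6% and for miR-221-3p 11.7% and 14.5%. Among members called higher in D11, 6 of 25 held a match to the miR-146b-5p seed, and among those called lower 0 of 38, with 45 of 254 among those not called. The other 4 seeds were in 3, 4, 3 and 1 of the higher members (let-7a-5p, miR-21-5p, miR-7-5p and miR-221-3p) and in 5, 2, 6 and 4 of the lower ones. A match is a description of letters and no site of binding.

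Without a replicate block, the comparisons without Dicer1 siRNA called no member. In NC against NT, limma called 0 of 319 in TPC1 (0.111% of 18008 genes) and 0 in D11 (0.35% of 17992 genes), with 28 and 41 members at an unadjusted p under 0.05. With the replicate number as a block, 3 members were called higher in D11, ADAMTS9-AS1 (0.95 ± 0.21, adjusted p = 0.047), MAMDC2-AS1 (1.00 ± 0.20, adjusted p = 0.031) and SMC5-AS1 (1.03 ± 0.17, adjusted p = 0.014), and 0 lower. In TPC1 the block called 2 higher, MAMDC2-AS1 (1.14 ± 0.19, adjusted p = 0.0071) and SMC5-AS1 (1.08 ± 0.22, adjusted p = 0.019). It called 4 lower there, ADIRF-AS1 (-0.67 ± 0.11, adjusted p = 0.0078), LAMA5-AS1 (-0.89 ± 0.22, adjusted p = 0.037), SLC7A11-AS1 (-1.11 ± 0.25, adjusted p = 0.027) and TM4SF19-AS1 (-0.93 ± 0.18, adjusted p = 0.014). The shares of all genes given above are from the fit without the block. The share with the block is not given here, so these counts are no result about the members. In D11 against TPC1 over the 12 control libraries, 0 members were called (1.02% of 18814 genes), with 24 at an unadjusted p under 0.05 and a median log2 difference of -0.05. The ratio to the sense gene was called for 0 of 309 members and 0% of 548 pairs, with 18 members at an unadjusted p under 0.05.

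Nuclear RNA decay factors, which remove many antisense and promoter-derived transcripts, were measured from a list of 25 genes. In TPC1 0 were called by limma, with a median log2 change of -0.15. In D11 0 were called higher and 2 of 25 lower, which is close to the 6.75% of all genes tested and no result about these factors. They were the exosome core subunit EXOSC9 (-0.82 ± 0.10, adjusted p = 0.00033) and ZCCHC8 of the nuclear exosome targeting complex (-0.59 ± 0.09, adjusted p = 0.0012), with a median of -0.17. EXOSC2, another exosome subunit, changed by -0.51 ± 0.10 (adjusted p = 0.0047), under the fold change minimum. Of other listed members, MCM3AP-AS1 changed by -0.20 ± 0.09 in D11 (adjusted p = 0.16), ZEB1-AS1 by -0.38 ± 0.23 (adjusted p = 0.25) and TMPO-AS1 by -0.61 ± 0.22 (adjusted p = 0.066), and none was called. TMPO-AS1 was called lower in TPC1 (-0.65 ± 0.16, adjusted p = 0.021), and lost that call without TPC1 siDicer replicate 1 or 3.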

How the data were processed

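RNA of 18 samples, 3 in each of 6 groups, was sequenced with a stranded mRNA kit on a NovaSeq. The authors aligned reads with STAR 2.5.3a to GRCh38 and counted them per gene with HTSeq 0.9.1 on an Ensembl annotation. The deposited values are a score, reads of a gene scaled to 20 M per library and rounded up, so no count model was used. Whether counting used strand is not given in the sources used here. The members and lists were chosen with earlier results of these data known.

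Values were tested as log2(value + 1), which understates changes of low genes, with limma 3.58.1 (limma-trend) in R 4.3.3. Genes had to reach 10 in 3 or more libraries of the fit. A call was a Benjamini-Hochberg adjusted p under 0.05 over all genes tested with a fold change of 1.5 or more. NT and NC of a line together were its control (6 libraries), and NC against NT, D11 against TPC1, their interaction with siDicer and the ratio to the sense gene were fitted the same way. Steps were tested on simulated data. Positions came from GENCODE 44, sequences from GRCh38 and RefSeq. Depth of 11.3 to 23.3 M reads puts 1 read at 0.861 to 1.77 units.

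Named were the 10 highest members, the 12 higher and 12 lower of smallest adjusted p in D11, 5 each way in TPC1, up to 6 ratios each way, 3 genes on either side of the threshold, a short list of known genes, and their sense genes. Same-numbered D11 samples deviated together in 9 of 9 pairs of groups (r of 0.108 to 0.504), so numbers pair the samples there. In TPC1 8 of 9 were over 0.1, the lowest being 0.0994 between NT and siDicer, so pairing by number is less sure there. NC and siDicer of the same number were at 0.275 to 0.542 in TPC1. Samples of different number were over 0.1 in 3 of 18 pairs in each line (highest 0.195 in TPC1 and 0.206 in D11). The main fits did not use the pairing, and the replicate block was an alternative in both lines. Alternatives were other scalings, pseudocounts, filters, controls and groupings, a replicate block and leaving out each library. Some members and 1 marker are not reported here.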

Additional observations from a re-analysis of the deposited data

Results flagged for a closer look

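Of 104 groups of 6 control libraries examined for named members, 6 held a library far from the others, and chance gives about 1 in 20. TPC1 NT replicate 2 was apart for PCBP1-AS1 (2867, nearest 3219), ZSWIM8-AS1 (821, nearest 589) and TMEM51-AS1 (239, nearest 167). TPC1 NC replicate 1 was apart for EPB41L4A-AS1 (389, nearest 320) and SPAG5-AS1 (924, nearest 1034). D11 NT replicate 1 was apart for NCBP2-AS2 (569, nearest 427).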

How the results depend on the processing

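Grouping by the titles gave 0 members higher or lower in both lines and 0 lower among the members that share no exon bases (here exon-free), and reversed TMEM51-AS1 (-0.13), SH3BP5-AS1 (-0.14), PRKCQ-AS1 (0.085), PITRM1-AS1 (0.11), HMMR-AS1 (0.10) and TMPO-AS1 (0.064) in TPC1. In D11 it reversed ARMCX3-AS1 (-0.047), SGMS1-AS1 (-0.062), SH3BP5-AS1 (-0.20), LACTB2-AS1 (0.032), FOXD2-AS1 (0.27), HMMR-AS1 (0.047), H1FX-AS1 (0.10), STARD4-AS1 (-0.028) and MAPKAPK5-AS1 (0.17). With NC alone as control, 9 were higher and 12 lower in TPC1 and 16 and 24 in D11, with ratios 2 higher and 1 lower in TPC1 and 9 lower in D11. With NT alone, 11 were lower in TPC1, 1 of them exon-free. With no fold change minimum, 30 were lower and 8 ratios higher in TPC1, and 1 exon-free member was higher in D11. With no filter, 2 exon-free members and 1 ratio were lower in TPC1, and with a mean of at least 50, 11 ratios. TMM scaling moved the TPC1 median to 0.0251. The cause was not tested.

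Leaving out 1 library gave 1 to 21 higher and 5 to 35 lower in TPC1, 10 to 29 and 23 to 40 in D11, 0 to 10 exon-free lower in TPC1 and 6 to 10 in D11. Ratios were 3 to 8 higher and 1 to 17 lower in TPC1 and 5 to 8 and 10 to 24 in D11. Without TPC1 siDicer replicate 1 or 3 the ratios were 3 higher and 1 lower, without replicate 2 8 and 17, without NT replicate 1 or 3 1 lower and without NC replicate 2 2 lower. Without D11 siDicer replicate 1 or 3, 10 ratios were lower. Medians were -0.0720 to -0.0237 in TPC1 and -0.0584 to -0.0167 in D11.

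With the replicate block, NC against NT had 2 members higher (MAMDC2-AS1 and SMC5-AS1) and 4 lower in TPC1 and 3 higher in D11. The share of all genes called with the block is not given here. The siDicer comparisons had 18 higher and 24 lower in TPC1 and 26 and 40 in D11, with ratios 7 and 9 and then 7 and 18, and 6 exon-free members lower in TPC1 and 10 in D11. The ratio of ZEB1-AS1 in D11 was no longer called.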
